A study of Mus musculus with 18 samples.

Results

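Intestinal stem cell genes were examined in the colon of mice with experimental colitis, in the colon of mice with colitis-associated colorectal cancer (CAC), and in organoids grown from tumors of CAC mice. The set held 10 genes chosen by name, Lgr5, Ascl2, Olfm4, Smoc2, Lrig1, Msi1, Rgmb, Ephb2, Ephb3 and Sox9, out of 36757 genes in the count table, and all 10 were found there under their own symbol. RNA was sequenced in bulk from 18 libraries in 6 groups of 3, and the question was whether loss of the E3 ubiquitin ligase RNF138 altered each model. All mice were of the C57BL/6 strain and 6 to 8 weeks old when the treatments began. The control mice, labelled wild type, carried the RNF138fl/fl allele, and the other mice were labelled RNF138-/-, with no Cre line named in the sources used here. To bring on colitis, both genotypes drank water with 2% DSS (dextran sulfate sodium, an irritant of the gut lining) over 7 days, then plain water over 14 days, with the cycle repeated 2 times and the colon taken 4 weeks after the last one. For CAC, both genotypes received the carcinogen azoxymethane (AOM) once at 10 mg/kg, followed 4 days later by the DSS cycles. The organoids were cultured in Matrigel from tumor fragments of CAC mice of each genotype after normal epithelium had been stripped off with EDTA. The labels do not say that the libraries of a group came from separate animals or cultures, and the p-values below measure the spread between libraries.

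The lining of the colon is renewed by stem cells at the base of each crypt, which divide under Wnt signals that R-spondins strengthen through receptors of the Lgr family. The genes of the set are used to mark or study these cells, yet their products act in different steps, from receptors and transcription factors to secreted proteins and receptors that guide where cells sit along the crypt. Several of them, among them Lgr5, Ascl2, Sox9, Ephb2 and Ephb3, are known targets of Wnt signaling, and tumors of the colon often carry an active Wnt pathway.

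The start regions of the members are shown for the genes for which the RefSeq promoter table (build GRCm38.p6) held an entry and for which the letters bear on Wnt or NF-kB, the pathway of interest in the study. The table had an entry for 6 of the 10 members, Ascl2, Olfm4, Lrig1, Rgmb, Ephb2 and Ephb3, with 8 promoters among them, each running from 250 bases before to 50 bases after the start site. The TCF/LEF motif was searched on both strands as CTTTGAA or CTTTGAT, which occurs in 8.65% of all 32851 promoters, and the NF-kB motif by its usual consensus, which occurs in 4.51%. No TCF/LEF match was in any of the 8 promoters. NF-kB matches were in Olfm4, at position -52 from the start site with overlapping matches on the opposite strand, and in Ephb2, at position -211, and are in capitals below. Ephb3, the closest relative of Ephb2 in the set, is printed beside it and holds neither motif.
Olfm4 promoter, chr14:80000052-80000351, plus strand: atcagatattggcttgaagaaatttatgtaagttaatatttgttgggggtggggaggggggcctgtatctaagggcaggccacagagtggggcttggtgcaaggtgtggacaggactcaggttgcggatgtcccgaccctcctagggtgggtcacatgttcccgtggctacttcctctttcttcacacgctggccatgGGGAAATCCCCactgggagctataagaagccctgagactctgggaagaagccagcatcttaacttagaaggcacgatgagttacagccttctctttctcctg
Ephb2 promoter, chr4:136835963-136836262, minus strand: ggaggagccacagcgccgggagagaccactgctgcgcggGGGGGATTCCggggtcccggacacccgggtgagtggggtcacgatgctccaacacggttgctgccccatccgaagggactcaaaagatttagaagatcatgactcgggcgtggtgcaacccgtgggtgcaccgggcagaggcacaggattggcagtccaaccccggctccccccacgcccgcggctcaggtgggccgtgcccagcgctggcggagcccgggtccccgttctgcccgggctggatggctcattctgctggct
Ephb3 promoter, chr16:21204545-21204844, plus strand: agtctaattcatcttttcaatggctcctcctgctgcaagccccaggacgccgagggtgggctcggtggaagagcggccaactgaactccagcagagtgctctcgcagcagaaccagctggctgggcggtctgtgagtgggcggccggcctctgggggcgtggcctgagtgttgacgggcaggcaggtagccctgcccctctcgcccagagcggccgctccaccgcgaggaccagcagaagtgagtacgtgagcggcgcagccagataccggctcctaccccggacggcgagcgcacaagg

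In the mouse genome (mm10, GENCODE M21) the receptor Lgr5 lies at chr10:115450311-115587780 on the minus strand, and the transcription factors Ascl2 and Sox9 at chr7:142966829-142969264 (minus) and chr11:112782224-112787760 (plus). The secreted proteins Olfm4 and Smoc2 are at chr14:79984081-80023139 and chr17:14279506-14404790, both plus, and Msi1 is at chr5:115429599-115455698 (plus). Lrig1 and Rgmb are at chr6:94604529-94700158 and chr17:15803188-15831039, both minus, and Ephb2 and Ephb3 at chr4:136647539-136835988 (minus) and chr16:21204755-21223305 (plus). All counts are over the exons of a whole gene. The strand setting of the counting is not given in the sources used here, so reads of Lgr5, Lrig1 and Msi1 cannot be told apart from those of A930009A15Rik, Slc25a26 and 4930430O22Rik where these overlap them on the opposite strand. Of the 50-base windows of Olfm4, 3.55% also occur in Gm6999, which makes its few counts less certain.

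Depth ran from 11514716 to 24390082 counts per library (median 17332367), and the 10 members together took 0.0211% to 0.166% of the counts. Levels are given as CPM, the counts of a gene relative to 1000000 counts of its library, after edgeR's trimmed-mean scaling over all 18 libraries, or per kilobase of exon (RPKM) where genes are compared with each other. Rnf138 mRNA overlapped between genotypes in colitis colon and organoids and was higher in all libraries labelled RNF138-/- of CAC colon. It was at 15.6 to 25.1 CPM in wild type and 17.99 to 19.4 in RNF138-/- colitis colon, at 21.5 to 27.6 and 39.7 to 45.8 in CAC colon, and at 37.7 to 55.7 and 42.8 to 50.3 in organoids. The deleted part of the gene is not described, so a count over the whole gene does not check the label, and the genotype below is that of the labels. Wild type replicate 3 of CAC colon stood apart: it was the shallowest library and had 167 CPM summed over 12 Wnt target and feedback genes, against 1367 and 1369 CPM in the other wild type CAC libraries and 185 to 254 CPM in colitis colon. The epithelial markers were present in every group, with their 12 genes summing to between 6101 and 16590 CPM per library. Their sums by genotype in CAC colon and organoids are given below. The 8 fibroblast markers summed to 973 to 1800 CPM in colon libraries, to 9312, 10035 and 23672 CPM in wild type organoids and to 41311 to 50799 CPM in RNF138-/- organoids. In bulk RNA, fewer cells of a type and less RNA per cell cannot be told apart.

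In colitis colon no member was called different between the libraries labelled RNF138-/- and wild type. Lgr5 was low in both genotypes, and of the 9 members with enough counts for the test, the ephrin-B receptors Ephb2 and Ephb3 had the largest fitted log2 fold changes, both with lower means in the libraries labelled RNF138-/-. Olfm4, which was not tested, had 1 count in all wild type libraries and 8 in all RNF138-/- libraries. Lgr5, the R-spondin receptor that marks cycling crypt base cells, was at 3.91, 3.09 and 3.34 CPM in wild type replicates 1 to 3 and at 3.77, 3.90 and 6.45 CPM in RNF138-/-. Only RNF138-/- replicate 3 was above all wild type libraries. The log2 fold change of Lgr5 was 0.45 ± 0.31 (SE, n = 3 per group), with an adjusted p of 0.686 by edgeR's quasi-likelihood test, adjusted by Benjamini-Hochberg over 16623 genes.

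The transcription factors did not separate by genotype in colitis colon. Ascl2, which keeps crypt base cells in the stem cell state, was at 10.8, 12.6 and 7.56 CPM in wild type and at 10.9, 9.95 and 5.52 CPM in RNF138-/-. Sox9, an HMG-box factor of the lower crypt, was at 73.6, 74.5 and 53.8 CPM in wild type and at 42.1, 67.5 and 40.9 CPM in RNF138-/-. Both pairs of groups overlapped, with log2 fold changes of -0.23 ± 0.32 for Ascl2 and -0.43 ± 0.25 for Sox9.

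Among the secreted proteins, Smoc2, a calcium-binding matrix protein, was at 39.0, 41.6 and 41.7 CPM in wild type and at 56.4, 32.0 and 20.8 CPM in RNF138-/- colitis colon, where the RNF138-/- libraries lay on both sides of the narrow wild type range. Olfm4, a glycoprotein that marks crypt base cells of the small intestine and is little expressed in mouse colon, had 0, 0 and 1 counts in wild type and 3, 1 and 4 counts in RNF138-/-. These are too few for the test, and the rate ratio was 7.86 with a 95% exact interval of 1.05 to 348.8 that covers counting error only. The RNA-binding protein Msi1 was at 3.91, 4.66 and 1.86 CPM in wild type and at 4.79, 4.02 and 3.35 CPM in RNF138-/-, which overlapped.

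Lrig1, Rgmb, Ephb2 and Ephb3, membrane proteins like Lgr5, had lower means in RNF138-/- than in wild type colitis colon, and none passed the test. Lrig1, which restrains signaling by ErbB receptors, was at 209, 207 and 149.9 CPM in wild type and at 135, 150.3 and 107 CPM in RNF138-/-. Rgmb, a co-receptor for bone morphogenetic proteins, was at 114, 130.2 and 73.4 CPM in wild type and at 112, 116 and 52.8 CPM in RNF138-/-. Both genes overlapped, Lrig1 by a single pair of nearly equal libraries.
Ephb2 and Ephb3 are receptor tyrosine kinases for ephrin-B ligands that sort cells along the crypt. Ephb2 was at 109.7, 86.8 and 79.5 CPM in wild type and at 45.5, 77.1 and 45.1 CPM in RNF138-/-, so all 3 RNF138-/- libraries were below all 3 wild type libraries. Its log2 fold change was -0.72 ± 0.26, with an unadjusted p of 0.0232 and an adjusted p of 0.382 by edgeR. Ephb3 was at 95.4, 93.6 and 56.0 CPM in wild type and at 58.0, 54.6 and 23.0 CPM in RNF138-/-, overlapping by 1 library, with a log2 fold change of -0.86 ± 0.36.

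Of the 9 members tested in colitis colon, edgeR called 0 at an adjusted p under 0.05 with a fold of at least 2, against 0.0902% of all genes tested. DESeq2 also called 0, against 2.06% of all genes called by that tool. At an unadjusted p under 0.05 by edgeR there were 3 (Lrig1, Ephb2 and Ephb3), against 10.4% of all genes. In the lower direction, 1 member had groups that did not overlap, against 8.32% of all genes. The median log2 fold change over the members was -0.23, beside 0.02 over all genes tested. Ascl2, Msi1, Rgmb and Smoc2 each changed sign when 1 library was left out.

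In CAC colon all 10 members had a higher mean in the libraries labelled RNF138-/-, with fitted folds from 1.09 for Rgmb to 6.68 for Lgr5. For 8 of them every RNF138-/- library was above every wild type library, against 24.5% of all genes tested. None of the 10 passed the call of edgeR in the fit of the 6 CAC libraries, and several did under other settings, so the values of the libraries are given first. The wild type libraries varied widely, and replicate 3 was the lowest of all 6 libraries for 8 of the members, the exceptions being Olfm4 and Rgmb.

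Lgr5 was at 28.8, 60.4 and 6.34 CPM in wild type replicates 1 to 3 and at 119.8, 329 and 214 CPM in RNF138-/- CAC colon. The lowest RNF138-/- library was above the highest wild type library, and the wild type libraries spanned nearly an order of magnitude. The log2 fold change was 2.74 ± 0.78, with an adjusted p of 0.0730 by edgeR over 17752 genes. It was 2.27 without wild type replicate 3 and 3.61 without wild type replicate 2, with no call when any 1 library was left out.

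Ascl2 was at 14.3, 12.7 and 1.80 CPM in wild type and at 29.1, 28.2 and 41.0 CPM in RNF138-/- CAC colon, with no overlap and a log2 fold change of 1.71 ± 0.64 (adjusted p = 0.120 by edgeR). Sox9 was at 55.4, 76.1 and 21.0 CPM in wild type and at 141, 160.1 and 129 CPM in RNF138-/-, with a log2 fold change of 1.45 ± 0.42 (adjusted p = 0.0766 by edgeR). The RNF138-/- libraries of Sox9 lay closer together than those of wild type, with SDs of 15.5 and 27.8 CPM.

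The secreted proteins had the lowest adjusted p-values of the set. Smoc2 was at 98.4, 109.5 and 30.7 CPM in wild type and at 282, 356 and 325 CPM in RNF138-/- CAC colon, and its log2 fold change of 1.96 ± 0.45 had an adjusted p of 0.0508 by edgeR. Olfm4 had 4, 3 and 2 counts in wild type and 12, 23 and 13 counts in RNF138-/-, at 0.246, 0.141 and 0.189 CPM against 0.638, 0.931 and 0.589 CPM. Olfm4 thus stayed below 1 CPM in every library, and its rate ratio was 3.91 with a 95% exact interval of 1.90 to 9.06 for counting error, beside an edgeR log2 fold change of 1.85 ± 0.41 (adjusted p = 0.0506).

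The other members differed less in CAC colon. Lrig1 was at 72.4, 98.4 and 61.6 CPM in wild type and at 137, 133 and 100.1 CPM in RNF138-/-, with no overlap and a log2 fold change of 0.62 ± 0.22 (adjusted p = 0.106 by edgeR). Msi1 was at 13.0, 13.7 and 2.94 CPM in wild type and at 21.4, 28.9 and 14.9 CPM in RNF138-/-, with a log2 fold change of 1.08 ± 0.55 (adjusted p = 0.208 by edgeR). The groups of Msi1 came within about 1 CPM of each other.
Ephb3 was at 42.2, 58.1 and 23.3 CPM in wild type and at 92.4, 96.5 and 60.2 CPM in RNF138-/-, with a log2 fold change of 0.96 ± 0.35 (adjusted p = 0.112 by edgeR). Ephb2 was at 71.5, 98.0 and 40.7 CPM in wild type and at 95.8, 132 and 102 CPM in RNF138-/-, where the groups overlapped (log2 fold change 0.60 ± 0.31). Rgmb was the member that differed least, at 21.2, 36.9 and 41.6 CPM in wild type and 24.0, 49.0 and 40.2 CPM in RNF138-/-, with overlapping groups.

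**Figure D1:**
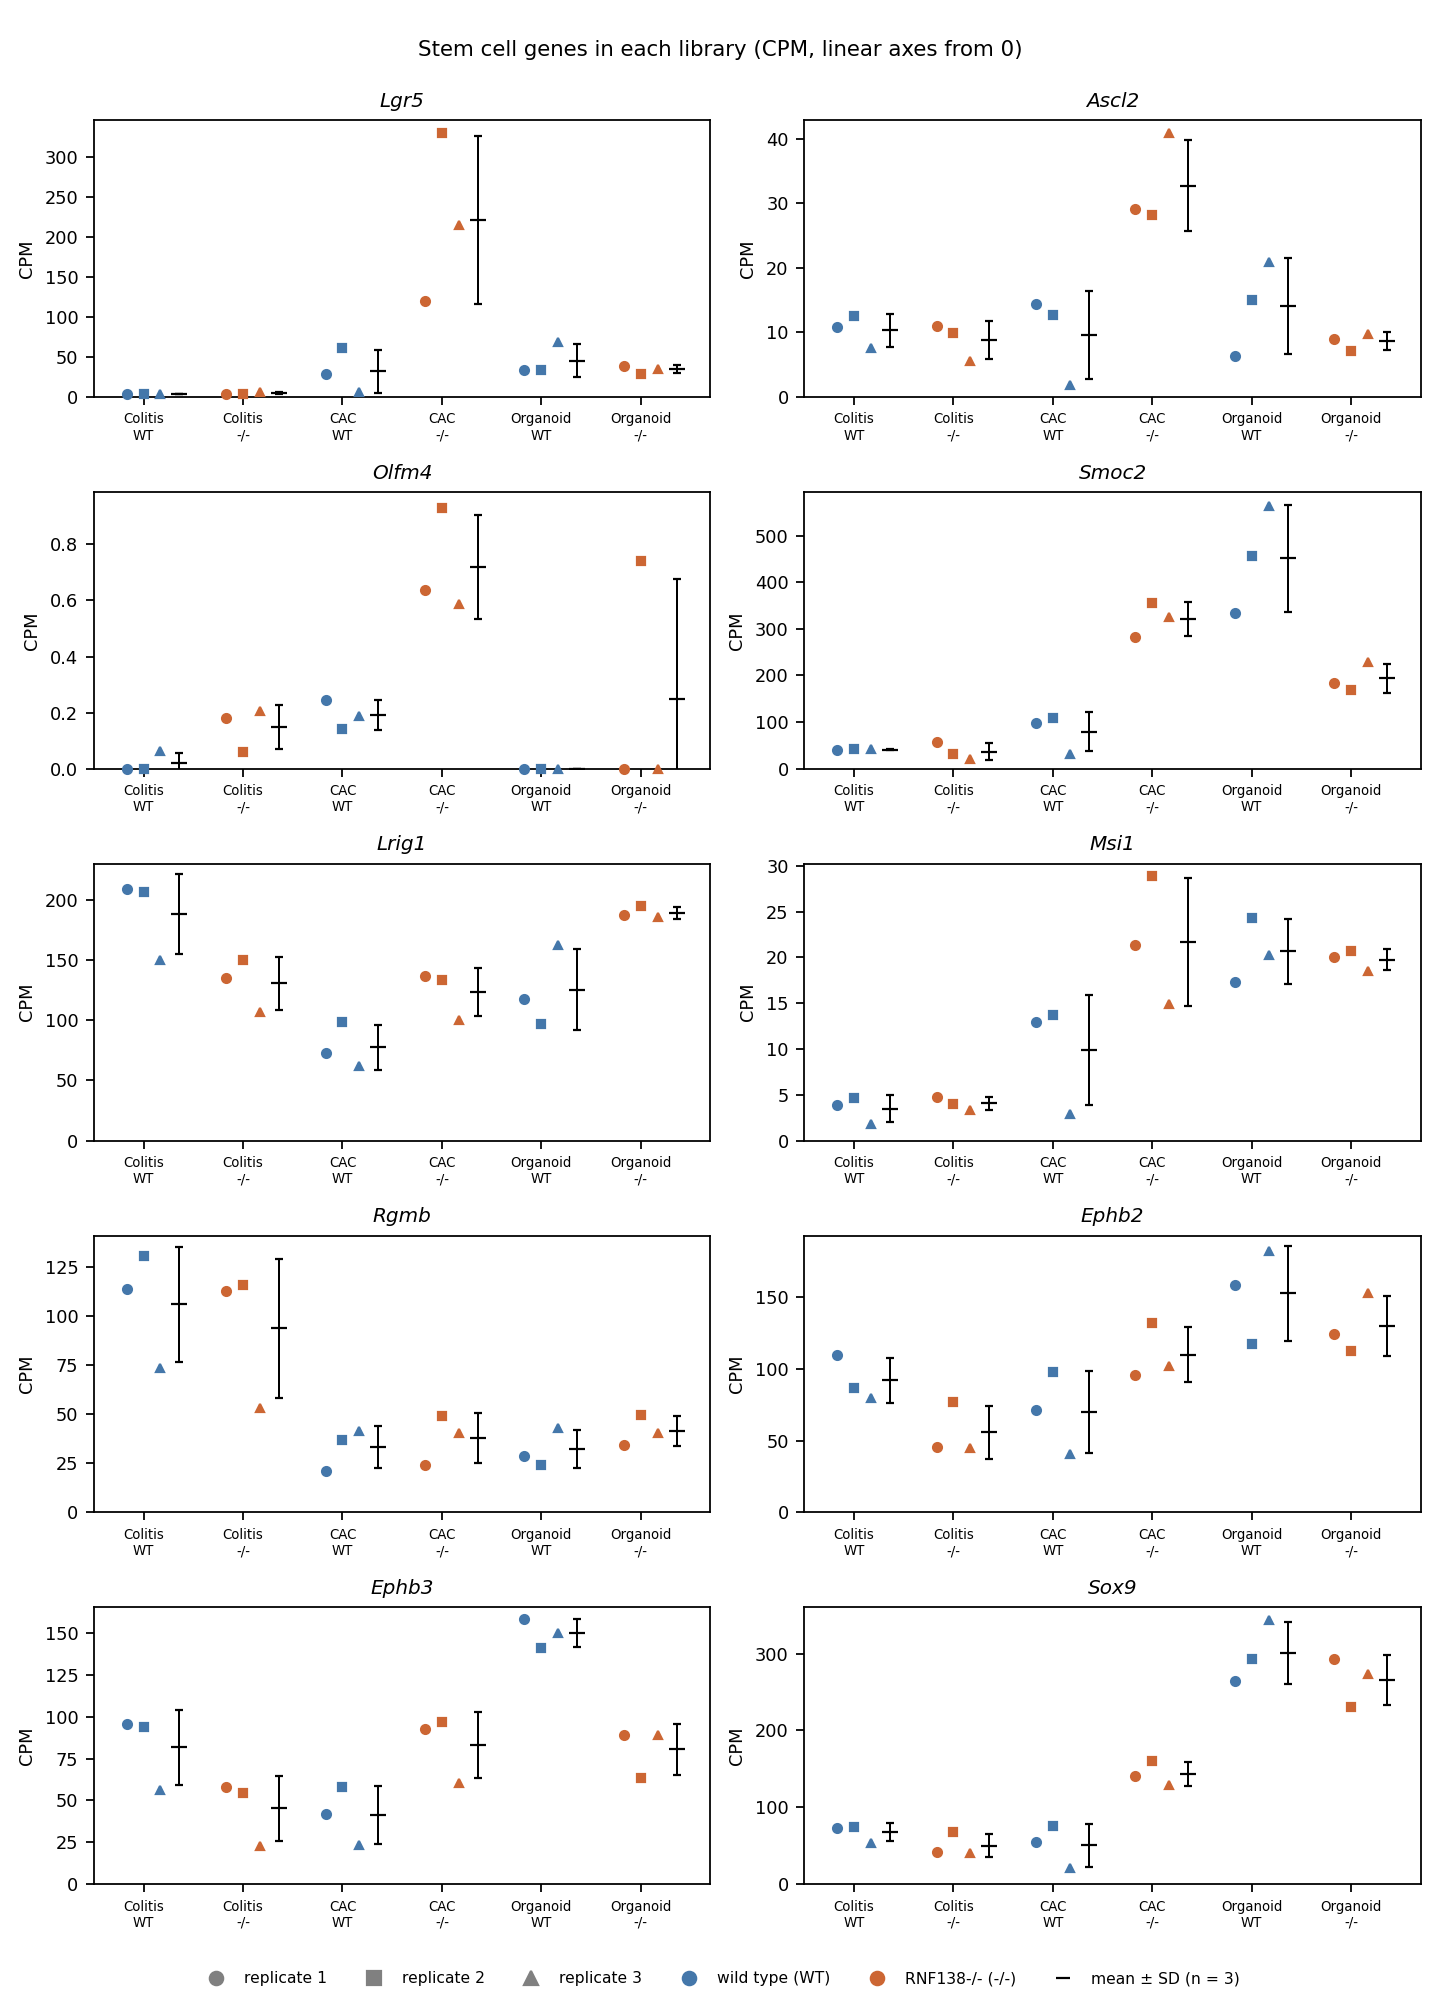
CPM of the 10 stem cell genes in each of the 18 libraries, on linear axes, by model (colitis, CAC, organoid) and genotype (WT, wild type, and -/-, labelled RNF138-/-). Points are libraries, and black marks are group means ± SD. In CAC colon the wild type libraries of Lgr5 lie between 6.34 and 60.4 CPM and the RNF138-/- libraries between 119.8 and 329 CPM, while Rgmb overlaps.

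edgeR called 0 of 10 members in CAC colon at an adjusted p under 0.05 with a fold of at least 2, against 5.37% of all genes tested in either direction and 0.546% in the higher direction. At an unadjusted p under 0.05 there were 7, against 33.8% of all genes, and DESeq2 called 4 (Lgr5, Ascl2, Smoc2 and Sox9), against 3.14% of all genes called higher by that tool. The median log2 fold change over the members was 1.26, beside 0.01 over all genes. Without wild type replicate 3 edgeR called Smoc2 (log2 fold change 1.60, adjusted p = 0.00878), Ascl2 (1.25, adjusted p = 0.0267) and Sox9 (1.09, adjusted p = 0.0270), against 0.911% of all genes called higher. In the fit of all 18 libraries it called 5 members, Lgr5, Smoc2, Sox9, Ascl2 and Ephb3, against 3.76% of all genes called higher. The calls over all genes in the fit of the 6 CAC libraries changed with the library left out. edgeR called 954 genes with all 6 libraries, 287 without wild type replicate 1, 109 without RNF138-/- replicate 3 and 0 without replicate 1 or 2, where 5048 and 3900 genes had an unadjusted p under 0.05. Every call between genotypes in CAC colon from this fit, including those of markers and listed genes below, was thus lost without RNF138-/- replicate 1 or 2.
Markers of other cell types moved with genotype in the same libraries. The 6 smooth muscle markers summed to 2508, 3584 and 8388 CPM in wild type and to 113 to 242 CPM in RNF138-/- CAC colon, and all 6 were called lower. The 8 markers of enteric glia and neurons summed to 25.4 to 67.1 CPM and to 6.65 to 10.4 CPM. The 12 markers of differentiated colon epithelium summed to 14521, 26462 and 53458 CPM and to 1240 to 2351 CPM, and 7 of the 12 were called lower. The 12 general epithelial markers summed to 9361 to 16590 CPM and to 7714 to 9156 CPM. All 12 had a log2 fold change below 0 (median -0.73), and 2 were called lower, against 4.83% of all genes. The 12 proliferation genes summed to 544 to 555 CPM and to 736 to 1027 CPM. Of these, 11 were higher without overlap, against 24.5% of all genes, and edgeR called 0. The part of these lists in the levels of the stem cell genes was not tested. When libraries were scaled on the epithelial markers instead of on all genes, the median of all genes moved to 0.87 on the log2 scale and 9 of the 10 members were called higher, against 31.8% of all genes.

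In organoids the direction of the largest differences was lower in the libraries labelled RNF138-/-. Smoc2 fell 2.39-fold and was the only member called at a fold of at least 2. Ephb3 fell 1.91-fold and Lrig1 rose 1.47-fold, both past the adjusted p threshold alone in the fit of all 6 libraries, and Lgr5 and Ascl2 overlapped between genotypes.

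Smoc2 was at 333, 456 and 564 CPM in wild type and at 183, 169 and 229 CPM in RNF138-/- organoids, which did not overlap, and its log2 fold change was -1.26 ± 0.21 (adjusted p = 0.00432 by edgeR over 15294 genes). Ephb3 was at 158, 141 and 150.0 CPM in wild type and at 89.0, 63.1 and 89.1 CPM in RNF138-/-, again without overlap, with a log2 fold change of -0.94 ± 0.15 (adjusted p = 0.00367 by edgeR) that reached a fold of 2 without RNF138-/- replicate 1 or 3 (-1.01 in both). Lrig1 went the other way, from 117, 96.7 and 162 CPM in wild type to 188, 195 and 186 CPM in RNF138-/-, with a log2 fold change of 0.56 ± 0.17 (adjusted p = 0.0387 by edgeR). It did not pass without wild type replicate 2 or without any 1 of the RNF138-/- replicates, where the adjusted p reached 0.105. The RNF138-/- organoids were close to each other for Lrig1, while the wild type organoids were spread.

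Lgr5 was at 33.9, 33.0 and 69.0 CPM in wild type and at 39.0, 29.1 and 35.1 CPM in RNF138-/- organoids, so wild type replicate 3 alone was high. Without it the log2 fold change of Lgr5 moved from -0.43 ± 0.28 to 0.0012. Ascl2 was at 6.29, 15.0 and 21.0 CPM in wild type and at 8.99, 7.09 and 9.78 CPM in RNF138-/-, with wild type replicate 1 below and replicates 2 and 3 above all RNF138-/- libraries. Its log2 fold change was -0.75 ± 0.39, and without wild type replicate 1 it was -1.09 with an adjusted p of 0.00429 by edgeR.

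Sox9, at 264, 293 and 344 CPM in wild type and 293, 230.0 and 273 CPM in RNF138-/- organoids, and Ephb2, at 158, 117 and 182 CPM and 125, 112 and 153 CPM, overlapped between genotypes. Msi1 was at 17.4, 24.3 and 20.2 CPM and at 20.1, 20.7 and 18.5 CPM, and Rgmb at 28.9, 24.3 and 42.8 CPM and at 34.2, 49.4 and 40.4 CPM. Olfm4 had no count in wild type organoids and in RNF138-/- organoids 14 counts in replicate 2 and none in the others, and was not tested. A count of 0 allows a level of up to 0.1215 to 0.284 CPM (3 counts) in these 18 libraries.

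Of the 9 members tested in organoids, 1 was called lower, against 7.04% of all genes in that direction and 15% in either, and 3 passed the adjusted p alone, against 35.5%. Groups did not overlap for 2 members in the lower direction (25.7% of all genes) and for 1 in the higher direction (27.6%), so the counts of members are near or below those of all genes. Scaled on the epithelial markers, where the median of all genes moved to 0.42 on the log2 scale, the log2 fold change of Smoc2 was -0.81 (adjusted p = 0.0353), under the fold of 2, and Lrig1 at 1.04 became the called member, where 21.2% of all genes were called in either direction. The fibroblast markers given above were higher in the RNF138-/- organoids, 7 of 8 of them called, and the Y-linked genes Ddx3y, Eif2s3y, Kdm5d and Uty summed to 0 CPM in all wild type and 242 to 281 CPM in all RNF138-/- organoids. The 12 epithelial markers summed to 10775 to 11674 CPM in wild type and to 6101 to 9000 CPM in RNF138-/- organoids. Of these, 10 had a log2 fold change below 0, 7 were lower without overlap (25.7% of all genes) and 2 were called lower (7.04%). Genotype and sex of the donor animals cannot be told apart in organoids, and the parts of the fibroblast and epithelial RNA were not tested.

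**Figure D2:**
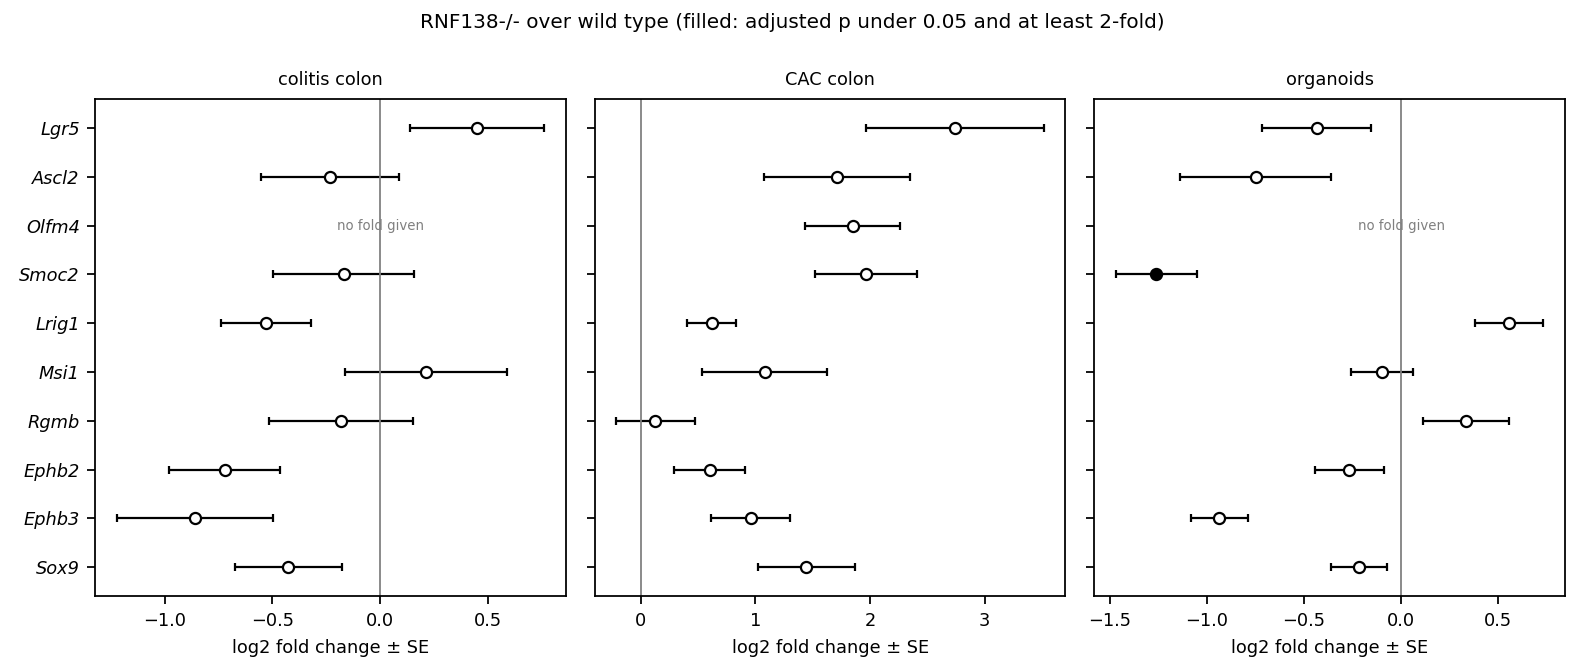
Log2 fold change (RNF138-/- over wild type) ± SE of each member in colitis colon, CAC colon and organoids, from edgeR fits of 6 libraries each, with filled points for members called. The horizontal scale differs between panels, all 10 points lie to the right of 0 in CAC colon, and the filled point is Smoc2 in organoids at -1.26.

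The step from colitis to CAC was compared within each genotype in the fit of all 18 libraries, where both models had received DSS and CAC colon had also received AOM. Lgr5 rose in both genotypes, 9.29-fold in wild type and 46.7-fold in the libraries labelled RNF138-/-, and Rgmb fell in both. Ascl2, Smoc2 and Sox9 rose in the RNF138-/- libraries and did not pass the test in wild type. The colon of each model came from different mice, and the labels give no date or run, so differences of handling between the models cannot be told apart from the models.

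In wild type, Lgr5 went from 3.45 ± 0.420 CPM (SD, n = 3) in colitis to 31.9 ± 27.2 CPM in CAC, a log2 fold change of 3.22 ± 0.60 (SE, adjusted p = 0.00147 by edgeR over 19390 genes), and every CAC library was above every colitis library. Without wild type CAC replicate 2 the log2 fold change was 2.33, still called. The nearest pair was 3.91 CPM in colitis and 6.34 CPM in CAC replicate 3. Msi1 went from 3.48 ± 1.45 to 9.87 ± 6.01 CPM, a log2 fold change of 1.51 ± 0.44 (adjusted p = 0.0232 by edgeR), although the groups overlapped through CAC replicate 3. Lrig1 fell from 188 ± 33.4 to 77.5 ± 18.9 CPM (log2 fold change -1.28 ± 0.22, adjusted p = 0.00091 by edgeR) and Rgmb from 106 ± 29.2 to 33.2 ± 10.6 CPM (-1.67 ± 0.35, adjusted p = 0.00347), neither with overlap.

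The other wild type members did not pass the call between colitis and CAC. Smoc2 had a log2 fold change of 0.97 ± 0.38 (adjusted p = 0.0854 by edgeR) and Ephb3 one of -0.98 ± 0.34 (adjusted p = 0.0542), while Ascl2, Ephb2 and Sox9 were between -0.40 and -0.09. Olfm4 had 1 count in colitis and 9 in CAC, a rate ratio of 9.71 with a 95% exact interval of 1.35 to 425.5. The calls were 2 members higher, against 9.78% of all genes, and 2 lower, against 3.81%. Groups did not overlap for 2 members in the higher direction (Lgr5 and Olfm4, 18.2% of all genes) and 2 in the lower direction (Lrig1 and Rgmb, 16% of all genes). The 5 squamous epithelium markers summed to 1.61 to 2.08 CPM in wild type colitis and to 34.7, 30.9 and 3.60 CPM in CAC replicates 1 to 3, and 3 of the 4 tested were called higher. Replicate 3 was thus low for these markers as for Lgr5, and their part in the members' levels was not tested. Without wild type CAC replicate 3, 5 members were called (15.7% of all genes), with Smoc2 added at a log2 fold change of 1.35 (adjusted p = 0.00487), and the call of Msi1 was lost without wild type colitis replicate 1 or 3, wild type CAC replicate 1 or 2, or in the fit of 12 libraries.

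In the libraries labelled RNF138-/-, Lgr5 went from 4.71 ± 1.51 CPM in colitis to 221 ± 105 CPM in CAC, a log2 fold change of 5.55 ± 0.64 (adjusted p = 8.44e-06 by edgeR). Smoc2 went from 36.4 ± 18.2 to 321 ± 37.1 CPM (3.14 ± 0.41, adjusted p = 2.14e-05) and Msi1 from 4.05 ± 0.717 to 21.7 ± 6.99 CPM (2.42 ± 0.44, adjusted p = 0.000309). Ascl2 rose from 8.81 ± 2.89 to 32.8 ± 7.11 CPM (1.90 ± 0.53, adjusted p = 0.00684) and Sox9 from 50.2 ± 15.0 to 143 ± 15.5 CPM (1.52 ± 0.33, adjusted p = 0.00115). For each of these 5 genes the CAC libraries were all above the colitis libraries.
Both ephrin-B receptors passed the adjusted p without reaching a fold of 2, Ephb2 with a log2 fold change of 0.98 ± 0.29 (adjusted p = 0.00893 by edgeR) and Ephb3 with 0.88 ± 0.34 (adjusted p = 0.0398). Lrig1 was level, at 131 ± 22.0 and 123 ± 20.1 CPM. Rgmb fell from 93.6 ± 35.4 to 37.8 ± 12.7 CPM (-1.31 ± 0.35, adjusted p = 0.00467 by edgeR), a call that was lost without scaling beyond total counts (-0.97) and when scaled on epithelial markers (-0.28). Olfm4 had 8 counts in colitis and 48 in CAC, a rate ratio of 4.83 with a 95% exact interval of 2.26 to 11.8, and an adjusted p of 0.0539 by edgeR.

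The calls in RNF138-/- were 5 members higher and 1 lower, against 17.5% and 19.6% of all genes, and 8 members passed the adjusted p at any fold, against 54.7%. Groups did not overlap for 8 members in the higher direction (31.7% of all genes) and 1 in the lower direction (27.4%). The smooth muscle markers (all 6 called lower), the markers of enteric glia and neurons (8 of 8) and those of differentiated epithelium (12 of 12) fell between the same groups. Of the 12 general epithelial markers, 5 were called lower, against 19.6% of all genes. Of 4 squamous epithelium markers tested, 3 were called higher and 1 lower, with sums of 1.91 to 9.63 CPM in colitis and 10.2 to 98.1 CPM in CAC, and of 7 immune markers 3 were called higher and 1 lower. The part of these markers in the members' levels was not tested.

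Organoids were set beside CAC colon, the model from whose tumors they were grown, in the fit of all 18 libraries, where 44.3% of all genes were called in wild type and 44.4% in the libraries labelled RNF138-/-. In wild type, Sox9, Smoc2, Ephb3, Ephb2 and Msi1 were higher in organoids, while Lgr5 and Ascl2 were not called. In RNF138-/-, Lgr5 and Ascl2 were lower in organoids. The organoid libraries had 3.35 to 8.29 CPM summed over the endothelial markers and 20.7 to 139 CPM over the immune markers, beside 103 to 169 CPM and 311 to 799 CPM in CAC colon. In wild type the 4 Y-linked genes summed to 188 to 229 CPM in CAC colon and to 0 in all organoid libraries, and sex of the donors and the step to organoids cannot be told apart in wild type. In RNF138-/- the same genes were at 148 to 202 CPM in CAC colon and 242 to 281 CPM in organoids. Fibroblast markers were called higher in organoids, 7 of 8 in wild type and 8 of 8 in RNF138-/-. Markers of differentiated epithelium were called lower for 11 of 12 in wild type, and in RNF138-/- for 5, with 2 higher. Smooth muscle markers were called lower for 5 of 6 in wild type and higher for 4 of 6 in RNF138-/-. Proliferation genes were called lower for 8 of 12 in wild type and 9 of 12 in RNF138-/-, against 26.8% and 26.5% of all genes. The part of these lists in the members' levels was not tested.

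In wild type, Sox9 was at 50.9 ± 27.8 CPM in CAC colon and 300.4 ± 40.2 CPM in organoids (log2 fold change 2.56 ± 0.34, adjusted p = 1.24e-05 by edgeR), and Smoc2 at 79.5 ± 42.7 and 451 ± 115 CPM (2.50 ± 0.40, adjusted p = 6.69e-05). Ephb3 rose by 1.86 ± 0.35 on the log2 scale (adjusted p = 0.000303), Ephb2 by 1.12 ± 0.29 (adjusted p = 0.0032) and Msi1 by 1.05 ± 0.42 (adjusted p = 0.0403). None of these 5 genes overlapped between tissue and organoids, against 29.9% of all genes without overlap in the higher direction. Lrig1 passed the adjusted p alone (0.69 ± 0.22, adjusted p = 0.0122 by edgeR) and overlapped. Lgr5 (0.50 ± 0.53, or 1.34 with a call without wild type CAC replicate 2), Ascl2 (0.53 ± 0.52) and Rgmb (-0.05 ± 0.34) overlapped, and Olfm4 had 9 counts in CAC colon and 0 in organoids and was called lower with an adjusted p of 0.0483, a call lost when any 1 library was left out. The calls were 5 higher, against 17.5% of all genes, and 1 lower, against 26.8%, and 7 members passed the adjusted p at any fold, against 60.7%. Groups did not overlap in the lower direction for 1 member, Olfm4, against 35.4%. Without wild type CAC replicate 3 the called members were Sox9 (2.19), Smoc2 (2.11) and Ephb3 (1.58), where 40.4% of all genes were called in either direction and 15.7% higher. Without wild type organoid replicate 3 there were also 3, where 42.9% of all genes were called in either direction.

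In the libraries labelled RNF138-/-, Lgr5 fell from 221 ± 105 CPM in CAC colon to 34.4 ± 4.96 CPM in organoids (log2 fold change -2.69 ± 0.56, adjusted p = 0.000644 by edgeR) and Ascl2 from 32.8 ± 7.11 to 8.62 ± 1.38 CPM (-1.93 ± 0.53, adjusted p = 0.00553). All organoid libraries were below all CAC libraries for both. Sox9 (0.89 ± 0.32, adjusted p = 0.0259) and Lrig1 (0.62 ± 0.22, adjusted p = 0.0221) passed the adjusted p alone in the higher direction, and Smoc2 did not pass (-0.73 ± 0.38, adjusted p = 0.106). Olfm4 did not pass (-1.37 ± 0.85, adjusted p = 0.179 by edgeR). Its log2 fold change ran from -6.64 to -0.84 when 1 library was left out, with an adjusted p by edgeR as low as 0.00102. The 2 calls were both lower, against 26.5% of all genes, and 4 members passed the adjusted p at any fold, against 59.9%. Groups did not overlap for 3 members in the lower direction (41.8% of all genes) and 2 in the higher direction (32.2%).

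Whether the genotype difference itself differed between models was tested as an interaction in the fit of all 18 libraries. Against colitis, the genotype log2 fold change in CAC colon was higher for Smoc2, Sox9, Ephb3, Ephb2 and Lrig1. Against CAC colon, the genotype log2 fold change in organoids was lower for Smoc2, Lgr5, Ascl2, Ephb3 and Sox9. Both contrasts use the same 6 CAC libraries and are given side by side. Other lists moved with both. Against colitis, the genotype difference in CAC colon was called lower for 6 of 6 smooth muscle markers, 8 of 8 of enteric glia and neurons and 11 of 12 of differentiated epithelium, against 9.37% of all genes. Against CAC colon, the genotype difference in organoids was called higher for 6 of 6 smooth muscle markers (median 7.05 on the log2 scale), 10 of 12 of differentiated epithelium (3.77), 5 of 8 of fibroblasts (2.01) and 4 of 4 Y-linked genes (12.94). The share of all genes called higher there was 11.4%. The part of the cell type markers was not tested, and in the organoid contrast sex cannot be told apart from the interaction.

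Between CAC and colitis colon, the genotype log2 fold changes differed by 2.17 ± 0.54 for Smoc2 (adjusted p = 0.0161 by edgeR), by 1.92 ± 0.46 for Sox9 (adjusted p = 0.0135) and by 1.86 ± 0.49 for Ephb3 (adjusted p = 0.0201). For Ephb2 the difference was 1.37 ± 0.40 (adjusted p = 0.0343) and for Lrig1 1.20 ± 0.31 (adjusted p = 0.0193). For all 5 genes the RNF138-/- mean was below the wild type mean in colitis and above it in CAC colon. Lgr5 (2.33 ± 0.80, adjusted p = 0.0608 by edgeR) and Ascl2 (1.98 ± 0.74, adjusted p = 0.0833) did not pass, although Lgr5 did without wild type CAC replicate 2 or RNF138-/- CAC replicate 1. The 5 calls compare with 2.57% of all genes called in that direction, and without wild type CAC replicate 3 the calls of Smoc2 (1.79), Ephb3 (1.58) and Sox9 (1.55) held while Ephb2 (1.09, adjusted p = 0.0706) and Lrig1 (1.05, adjusted p = 0.0504) were lost. Leaving out 1 of the 12 libraries at a time ended the call of Ephb2 in 8 cases, that of Lrig1 in 3 and that of Ephb3 in 2, the last without wild type colitis replicate 1 or RNF138-/- CAC replicate 2.

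Between organoids and CAC colon, the genotype log2 fold changes differed by -3.23 ± 0.55 for Smoc2 (adjusted p = 0.000875 by edgeR), -3.18 ± 0.76 for Lgr5 (adjusted p = 0.00748) and -2.46 ± 0.74 for Ascl2 (adjusted p = 0.0260). They differed by -1.91 ± 0.48 for Ephb3 (adjusted p = 0.0107) and -1.67 ± 0.46 for Sox9 (adjusted p = 0.0156). Msi1 (-1.18 ± 0.59, adjusted p = 0.155 by edgeR), Ephb2 (-0.88 ± 0.40, adjusted p = 0.123), Lrig1 (-0.07 ± 0.31) and Rgmb (0.18 ± 0.49) did not pass. The 5 calls compare with 7.54% of all genes called lower, and all 5 held without wild type CAC replicate 3, at -2.84, -2.70, -1.98, -1.62 and -1.30 in the order given. Without wild type CAC replicate 2 the value of Lgr5 was -4.01, still called. The call of Ascl2 was lost in 5 of the 12 cases in which 1 library was left out, with RNF138-/- CAC replicate 3, wild type organoid replicate 2 or 3, or RNF138-/- organoid replicate 1 or 2 absent.

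**Figure D3:**
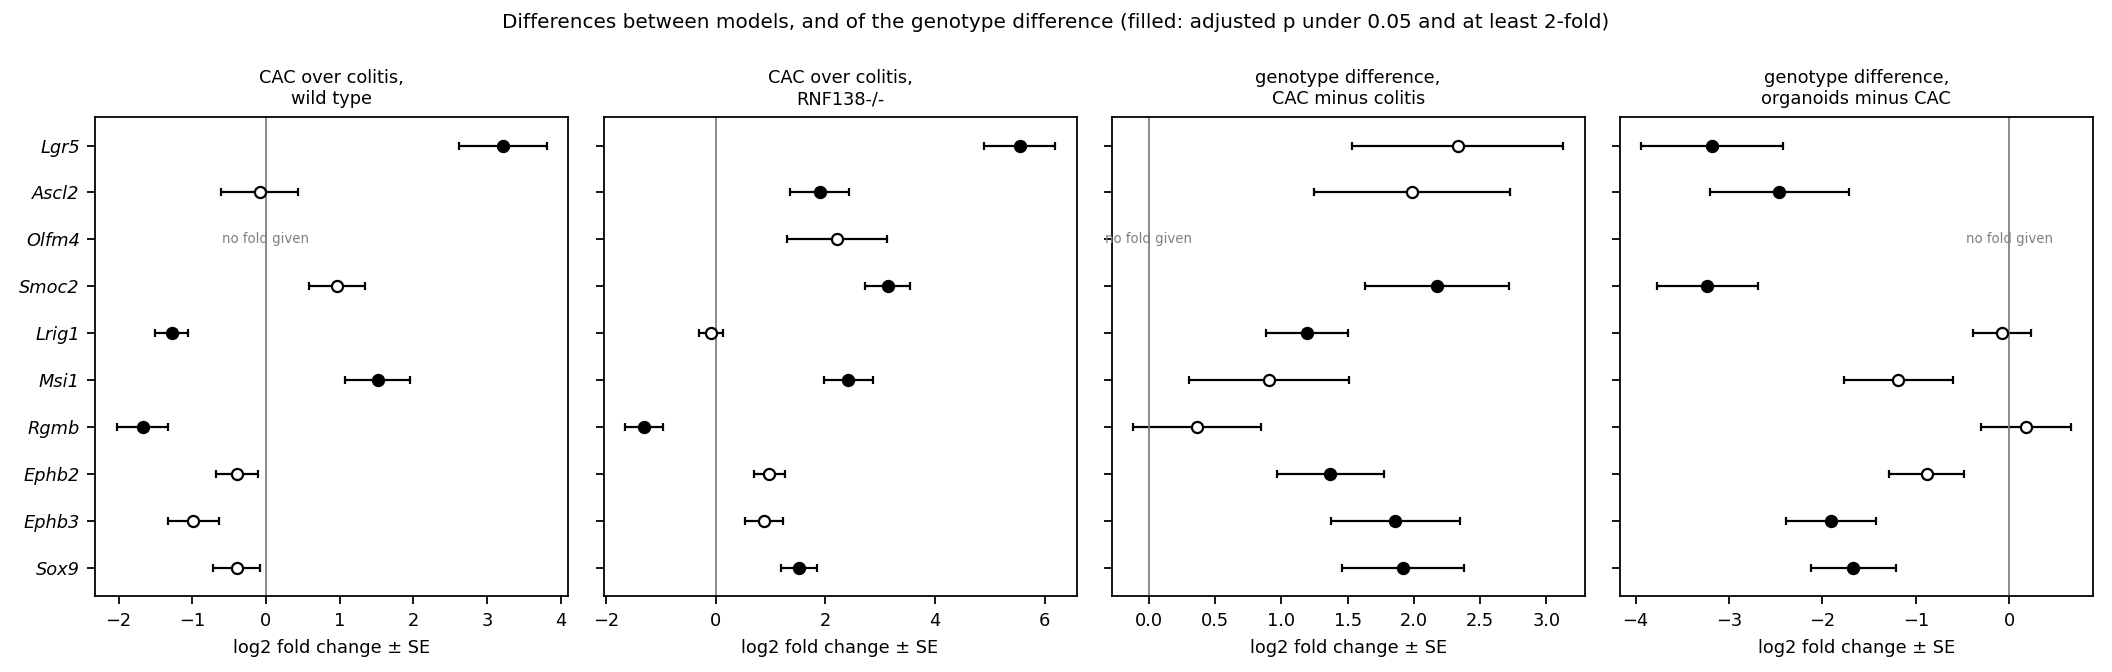
Log2 fold change ± SE of each member for CAC over colitis within each genotype, and the difference of the genotype log2 fold change between CAC and colitis colon and between organoids and CAC colon, from the fit of all 18 libraries, with filled points for members called. Lgr5 lies at 3.22 in wild type and 5.55 in RNF138-/- for CAC over colitis, and no fold is drawn for Olfm4 where its counts were too low.

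Genes of the same pathway outside the set were read from lists. The lists were chosen with earlier results of these data known, so their counts are descriptions. Of the 12 Wnt target and feedback genes, 9 rose in wild type from colitis to CAC, against 9.78% of all genes, and none fell. The summed level in wild type CAC replicate 3, 167 CPM, was below that of all wild type colitis libraries, and 4 of the 12 genes were without overlap in the higher direction, against 18.2% of all genes. The genes that rose included Notum, a secreted Wnt deacylase, at 0.559 ± 0.00221 CPM in colitis and 83.8 ± 70.6 CPM in CAC (log2 fold change 7.21), Wif1, a secreted Wnt inhibitor (7.05), the transcription factor Sp5 (5.22) and the inhibitor Apcdd1 (4.56). In the libraries labelled RNF138-/- all 12 rose, against 17.5% of all genes, with Notum at 9.05, Wif1 at 7.45, Apcdd1 at 5.55 and Sp5 at 5.05.

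Between genotypes in CAC colon all 12 Wnt genes had a log2 fold change above 0, with a median of 1.41, and 11 of them did not overlap, against 24.5% of all genes, yet edgeR called 0, 3 passed an unadjusted p under 0.05, against 33.8% of all genes, and DESeq2 called 2, against 3.14% called higher. Without wild type CAC replicate 3, edgeR called 4 of them, against 0.911%. Axin2, the negative feedback gene of the pathway, was at 120 ± 86.3 CPM in wild type and 409 ± 11.8 CPM in RNF138-/- CAC colon. In organoids 10 of the 12 fell in RNF138-/-, against 7.04% of all genes, with Notum at -2.33 (258 ± 41.6 to 52.7 ± 6.74 CPM), Wif1 at -2.19, the inhibitor Nkd1 at -1.95 and the factor Lef1 at -1.74. The median of the list there was -1.57, and 7 fell when scaled on epithelial markers, against 3.14% of all genes called lower with that scaling. The genotype difference was lower in organoids than in CAC colon for 10 of the 12, against 7.54% of all genes, among them Wif1 (-4.00), Notum (-3.73), Nkd1 (-3.53) and Axin2 (-3.26).

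The 12 other crypt base genes held genes called in each direction. The shares of all genes to read the counts of this and the next lists against are 0.546% called higher and 4.83% lower between genotypes in CAC colon, 7.94% and 7.04% in organoids, 9.78% and 3.81% from colitis to CAC in wild type, and 17.5% and 19.6% in RNF138-/-. In CAC colon, with the loss of calls without RNF138-/- replicate 1 or 2 given above, Cdca7, a Myc-responsive gene, rose by 1.57 ± 0.23 on the log2 scale in the libraries labelled RNF138-/- and the chloride cotransporter Slc12a2 by 1.15 ± 0.24, while the water channel Aqp4 fell by 2.95 ± 0.37 on the log2 scale. Wild type and RNF138-/- CAC colon had 280 ± 115 and 37.8 ± 9.92 CPM of Aqp4. From colitis to CAC, Mex3a, an RNA-binding protein of slow-cycling crypt cells, rose in wild type (2.16) and in RNF138-/- (4.43), and so did Tnfrsf19, a receptor of the TNF family also known as Troy (1.86 and 3.19). In organoids, Tnfrsf19 (-1.36) and Hopx (-1.28) fell in RNF138-/-, against 7.04% of all genes, and none rose, and when scaled on epithelial markers 1 rose and none fell.

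Of the R-spondin receptors and niche ligands, Lgr6 was at 0.193 ± 0.197 CPM in wild type colitis and 22.4 ± 18.8 CPM in wild type CAC colon (log2 fold change 6.81), and the ligand Wnt6 rose by 4.35 on the log2 scale between the same groups. Rspo1 (-2.02) and Wnt2b (-1.64), ligands made by stromal cells, fell between them. In the fit of all 6 CAC libraries Rspo3 was the only gene of the list called between genotypes, at 3.90 ± 0.586 CPM in wild type and 0.815 ± 0.590 CPM in RNF138-/- (log2 fold change -2.30 ± 0.51). In RNF138-/- organoids 5 genes of the 10 tested rose, against 7.94% of all genes, with Rspo1 at 3.92, Wnt2b at 3.79 and the BMP antagonist Grem1 at 2.67 (562 ± 181 to 3659 ± 802 CPM), and 2 fell, against 7.04%, among them Wnt6 (-1.85). The summed fibroblast markers were higher in the same libraries, as given above, and their part was not tested.

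Among ephrin-B ligands and other EphB receptors, Efnb1 fell in RNF138-/- CAC colon (95.7 ± 29.8 to 42.5 ± 6.72 CPM, log2 fold change -1.23 ± 0.25). No gene of the list was called between genotypes in organoids. By edgeR 1 passed the adjusted p there without reaching a fold of 2, against 35.5% of all genes at any fold. DESeq2 called 0, against 15.2% of all genes. Ephb6, a receptor without kinase activity, rose from colitis to CAC in wild type (3.35) and in RNF138-/- (3.57), and the ligand Efnb3 fell (-1.78 and -2.38). Of the closest relatives of the members, Sox10, a factor of enteric glia (-4.05), and Lrig3 (-1.57) fell in RNF138-/- CAC colon, and Olfm1 rose in RNF138-/- organoids (1.80). In colitis colon none of the genes of these lists was called between genotypes by edgeR. There 2 other crypt base genes, 3 Wnt genes, 1 niche gene, 1 ephrin-B or EphB gene and 5 relatives had an unadjusted p under 0.05, against 10.4% of all genes. DESeq2 called 1 other crypt base gene and 1 relative, against 2.06% of all genes called by that tool.

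**Figure D4:**
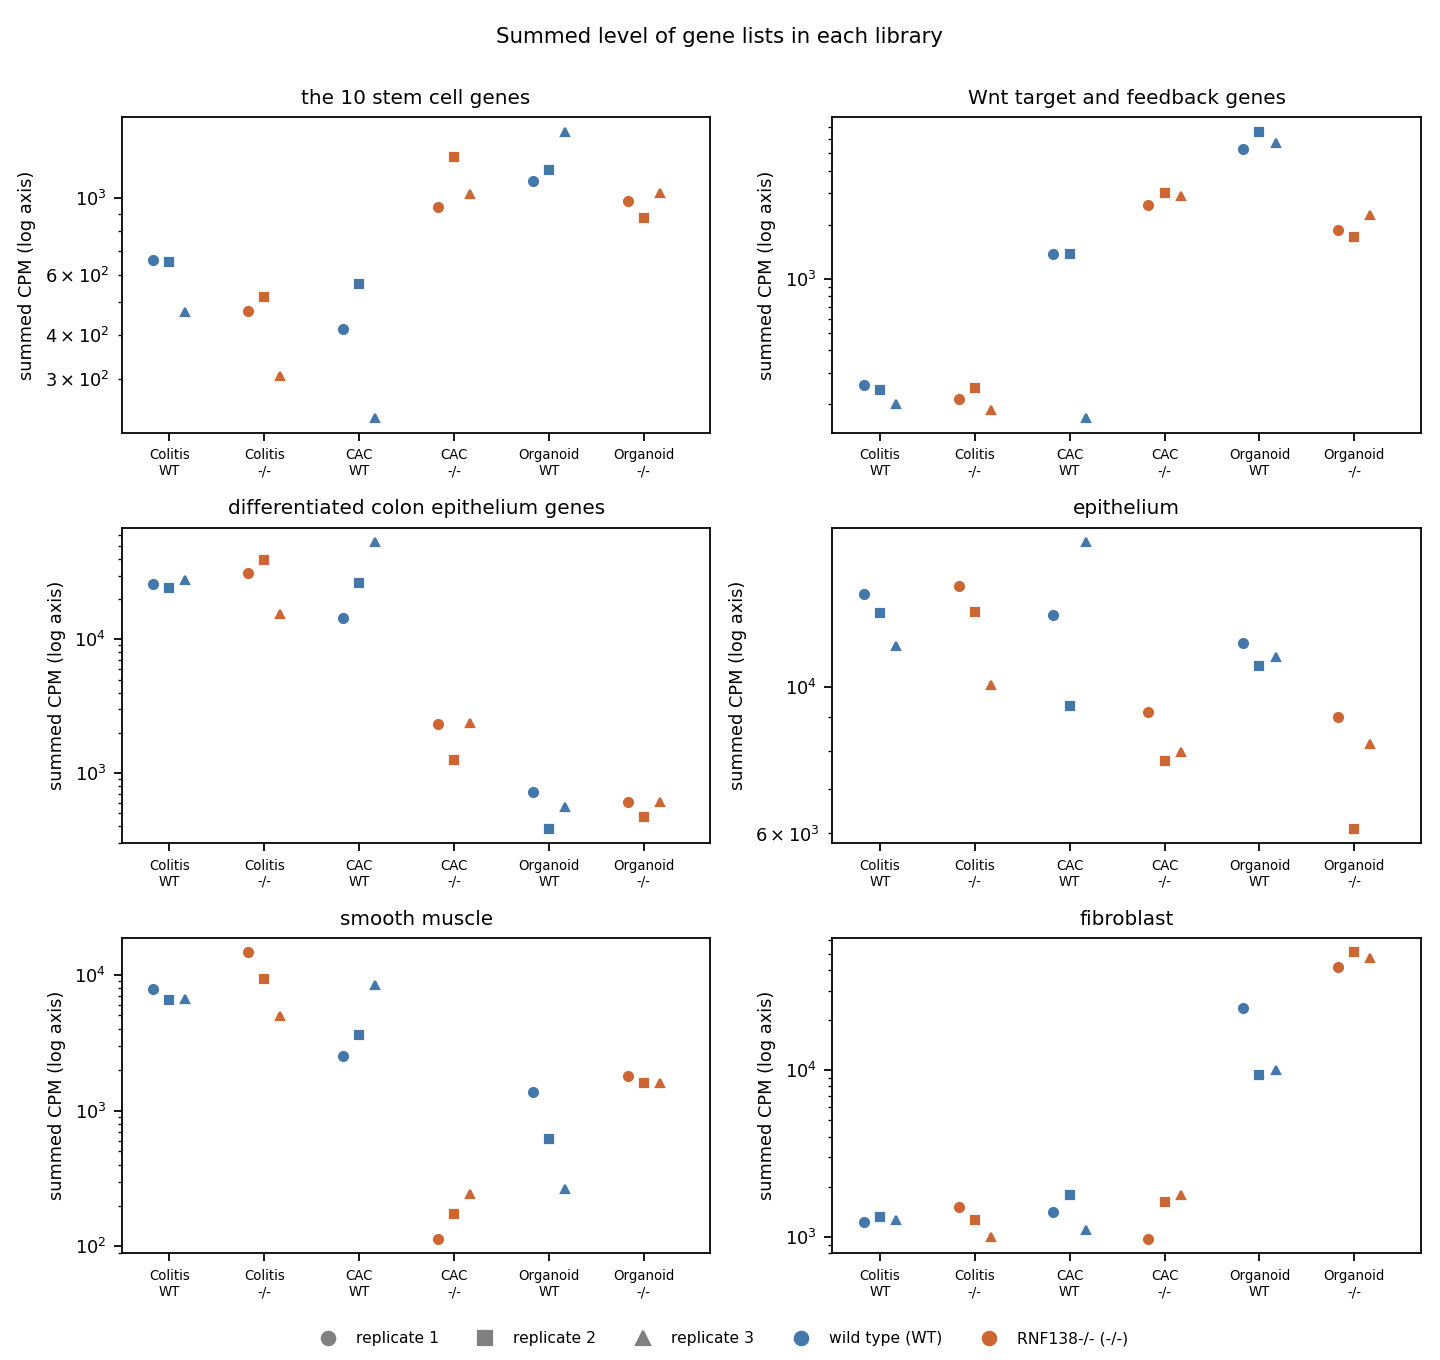
Summed CPM of gene lists in each of the 18 libraries, on a log axis, by model and genotype, with points for libraries. The lists drawn are the stem cell genes, the Wnt target and feedback genes, and the markers of differentiated colon epithelium, epithelium, smooth muscle and fibroblasts. The Wnt target and feedback genes sum to 167 CPM in wild type CAC replicate 3 and to 1367 and 1369 CPM in the other wild type CAC libraries, and the smooth muscle markers are lowest in RNF138-/- CAC colon, at 113 to 242 CPM.

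Per length of exon, the order of the members changed with the model. Lrig1 was first in colitis colon, at 33.7 ± 5.99 RPKM (SD, n = 3) in wild type and 23.4 ± 3.93 in RNF138-/-, and in wild type CAC colon at 13.9 ± 3.39 RPKM, where Sox9 (12.3 ± 6.73) and Smoc2 (11.4 ± 6.14) came next and did not differ from it beyond their spread. In CAC colon labelled RNF138-/- the order was Smoc2 (46.2 ± 5.34), Sox9 (34.7 ± 3.76), Lrig1 (22.1 ± 3.60), Lgr5 (21.5 ± 10.2) and Ascl2 (20.2 ± 4.38), the last 3 within their spread of each other.
In organoids Sox9 was first, at 72.6 ± 9.73 RPKM in wild type, where Smoc2 followed at 64.9 ± 16.6, within their spread of each other. In RNF138-/- organoids Sox9 was at 64.2 ± 7.77 RPKM and Lrig1 followed at 33.9 ± 0.876. Lgr5 was rank 9 of 10 in colitis colon at 0.336 ± 0.0409 and 0.458 ± 0.147 RPKM, rank 8 in wild type CAC colon at 3.10 ± 2.65 RPKM, and rank 4 in RNF138-/- CAC colon. In organoids it was at 4.41 ± 2.00 and 3.35 ± 0.483 RPKM. Olfm4 was last in every group, at no more than 0.243 RPKM on average.

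The genes most like Lgr5, Ascl2 and Olfm4 were found by the root-mean-square difference of the centred mean log2 CPM (0.5 CPM added) over the 6 groups, where a smaller value is a closer profile. For Lgr5 they were Gm830 (0.32), Defa32 (0.37) and Slco5a1 (0.38), and for Ascl2 they were Gm11670 (0.24), N4bp3 (0.25) and Bcl7a (0.26). For Olfm4 they included Dsn1 (0.07) and Kansl1l (0.07), close values that are easy to reach for a gene near the added 0.5 CPM. Within the set, Ephb2 and Ephb3 were the closest pair (0.26), Smoc2 and Msi1 were nearest to each other (0.52), Lrig1 was nearest to Ephb2 (0.53), Rgmb to Lrig1 (0.59) and Sox9 to Msi1 (0.62). Lgr5 had the most distant nearest member, Smoc2 at 0.98.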

How the data were processed

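Total RNA of 18 mouse libraries was sequenced in bulk (TruSeq), 3 per group. The authors deposited raw read counts per gene in 1 table. The submitters' processing notes name STAR 2.6.1d, HTSeq 0.11.2, DESeq2 and mm10, and the methods name Gencode v.M8 and Cufflinks. Of the gene IDs, 99.84% matched GENCODE M21, which gave positions and exon lengths, and the symbols are those the authors deposited. The 10 members and all gene lists were chosen with earlier results of these data known.

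Counts were tested with edgeR 4.0.16 in R 4.3.3 (trimmed-mean scaling, filterByExpr by group with a minimum count of 10, quasi-likelihood F test, Benjamini-Hochberg over all genes tested). Called means an adjusted p under 0.05 and a fold of at least 2, and SE is the fold change divided by the square root of F. Genotype was tested in the 6 libraries of each model, and contrasts across models and interactions in all 18. Alternatives were other scalings, filters, DESeq2 1.42.0, a replicate block, other sets of libraries, and each library left out. All members are named, then at most 4 called genes of each list and comparison with the largest fold, the nearest genes in profile and extreme markers. Some genes that this rule names are not reported here. Axin2 levels in CAC colon were named after their values were seen. Same-numbered libraries did not deviate together in every pair (correlations of 0.09 to 0.48 in colitis, 0.03 to 0.21 in CAC and -0.18 to 0.05 in organoids), so numbers were not treated as pairs. Replicates differed beyond counting noise (chi-square per degree of freedom 8.05 to 160.7). Intervals and the limit of 3 counts cover counting error only.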

Additional observations from a re-analysis of the deposited data

Results flagged for a closer look

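For 5 members the genotype log2 fold change (RNF138-/- over wild type) differed between CAC and colitis colon by edgeR's interaction test over all 18 libraries. The differences were 2.17 for Smoc2, 1.92 for Sox9, 1.86 for Ephb3, 1.37 for Ephb2 and 1.20 for Lrig1, each with the higher fold change in CAC colon, against 2.57% of all genes called in that direction. Of the 12 fits that left out 1 library, Ephb2 lost its call in 8, Lrig1 in 3 and Ephb3 in 2, and the fit of 12 libraries called 3 members.

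For 5 members the genotype log2 fold change differed between organoids and CAC colon by the same test. The differences were -3.23 for Smoc2, -3.18 for Lgr5, -2.46 for Ascl2, -1.91 for Ephb3 and -1.67 for Sox9, each with the lower fold change in organoids, against 7.54% of all genes called in that direction. Within organoids Lgr5 (-0.43), Ascl2 (-0.75) and Sox9 (-0.22) overlapped between genotypes and were not called. The call of Ascl2 in the interaction was lost in 5 of the 12 fits that left out 1 library. Both sets of differences rest on the same 6 CAC libraries. Over the same contrast of organoids with CAC colon, the genotype difference was also called higher for 4 of 4 Y-linked genes, 6 of 6 smooth muscle, 10 of 12 differentiated epithelium and 5 of 8 fibroblast markers, against 11.4% of all genes. Between CAC and colitis it was called lower for 6 of 6 smooth muscle and 11 of 12 differentiated epithelium markers, against 9.37%. Sex and the organoid interaction cannot be told apart, and the part of the cell type markers was not tested.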

How the results depend on the processing

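The number of members called in CAC colon between genotypes was 0 and became 1 without scaling beyond total counts, 9 when scaled on epithelial markers, 2 with no filter on low counts, 4 with DESeq2, 5 in the fit of all 18 libraries and 0 to 3 when a library was left out. The genes called over the whole table in the same comparison went from 954 (5.37%) to 713 (4.02%), 6436 (36.3%), 1641 (5.06%), 2463 (13.9%) and 2834 (14.6%) in that order, and ran from 0 to 1136 when a library was left out. In organoids between genotypes it went from 1 to 3 with the adjusted p alone, to 2 without scaling, and 1 to 2 when a library was left out. Of organoids against CAC colon, the wild type count of 6 ranged from 3 to 6 when a library was left out, where 40.3% to 43.0% of all genes were called. The RNF138-/- count of 2 ranged from 2 to 3 when a library was left out, where 40.3% to 42.7% of all genes were called. That count became 4 with the adjusted p alone, 4 without scaling and 4 when scaled on epithelial markers. The interaction count between CAC and colitis went from 5 to 3 in a fit of 12 libraries. It ran from 2 to 6 when a library was left out, where 7.0% to 15.0% of all genes were called. Of all genes, 35.5% and 16.9% were called in organoids between genotypes with the adjusted p alone and without scaling, 59.9%, 53.3% and 43.3% in RNF138-/- organoids against CAC with the adjusted p alone, without scaling and scaled on epithelial markers, and 8.34% for the interaction in 12 libraries. The cause of these shifts was not tested.

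With the replicate number as a block, 1 member was called in CAC colon between genotypes (Ephb3, log2 fold change 1.02), and the counts of members in the other comparisons were within 1.5 times those without the block. The genes called with the block were 89 in place of 15 in colitis, 1079 in place of 954 in CAC and 2071 in place of 2292 in organoids between genotypes. Between genotypes, 3 of 6 colitis libraries, 5 of 6 CAC libraries and 1 of 6 organoid libraries correlated best with the library of their own number. The labels do not say that a number marks a pair.

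Some log2 fold changes of members that had not been called changed sign. Scaled on epithelial markers, these were Ephb2 (0.19), Lgr5 (0.030), Msi1 (0.35) and Sox9 (0.22) in organoids between genotypes, Ascl2 in wild type CAC against colitis (0.24), Lrig1 in RNF138-/- CAC against colitis (0.86), Rgmb in wild type organoids against CAC (0.73), Ephb3 (0.30) and Msi1 (0.25) in RNF138-/- organoids against CAC, Olfm4 in the CAC interaction (0.19) and Rgmb in the organoid interaction (-0.22). Without scaling they were Ascl2 in wild type CAC against colitis (0.044), Lrig1 in RNF138-/- CAC against colitis (0.23), Ephb2 (-0.38), Lrig1 (-0.0011) and Rgmb (-0.51) in RNF138-/- organoids against CAC, and Rgmb in the organoid interaction (-0.32). With the block, Ephb3 in RNF138-/- organoids against CAC was at 0.027.

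Leaving out 1 library at a time gave ranges across 0 for Ascl2 (-0.41 to 0.011), Msi1 (-0.083 to 0.47), Rgmb (-0.38 to 0.10) and Smoc2 (-0.63 to 0.11) in colitis between genotypes, Rgmb in CAC (-0.12 to 0.37), and Lgr5 (-0.61 to 0.0012) and Msi1 (-0.20 to 0.046) in organoids. The ranges also crossed 0 for Ascl2 in wild type (-0.50 to 0.39) and Lrig1 in RNF138-/- (-0.27 to 0.044) CAC against colitis, for Rgmb in wild type (-0.33 to 0.13) and Ephb3 (-0.24 to 0.11), Msi1 (-0.36 to 0.11) and Rgmb (-0.12 to 0.35) in RNF138-/- organoids against CAC, and for Lrig1 (-0.26 to 0.18), Olfm4 (-1.89 to 3.93) and Rgmb (-0.048 to 0.48) in the organoid interaction. In RNF138-/- CAC against colitis, Ephb2 was called without colitis replicate 2 or CAC replicate 1 or 3, and Ephb3 without colitis replicate 1 or CAC replicate 3. Over all members, comparisons and alternatives, 1189 fold changes kept direction and call, 63 gained a call, 46 lost it and 45 changed sign. Depth limits Olfm4, which had at most 23 counts in a library.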
